A study of Saccharomyces cerevisiae with 12 samples.

Results

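The UTP, NOP and RRP genes of budding yeast are genes of ribosome biogenesis. They were taken as the nuclear protein-coding genes of the R64 annotation whose symbol is UTP, NOP or RRP followed directly by a digit, which gave 53 of 6002 genes. The rule reads gene symbols and no measured value. By role, the 53 comprised 6 genes of UtpA, 4 of UtpB, 2 of UtpC, 16 other genes of small subunit synthesis, 14 of large subunit synthesis, 7 of the RNA exosome and 4 of the small nucleolar ribonucleoproteins. The region from 500 bp upstream to 500 bp downstream of each start codon held 14 to 41 CpG sites (median 27).

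Ribosomes are assembled in the nucleolus on a long precursor of the ribosomal RNAs. UtpA, which binds first, UtpB and UtpC join the U3 small nucleolar RNA on the 5′ end of this precursor to form the small subunit processome, box C/D particles with Nop1, Nop56 and Nop58 guide RNA methylation, and the exosome trims RNA from its 3′ end. The promoters of this regulon are known for the short elements PAC and RRPE. Abf1 is a general regulatory factor, a protein that binds promoters and helps to keep nucleosomes away from them.

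Occupancy measurement by DNA methylation (ODM-seq) was used to read chromatin at these genes. The bacterial enzyme M.SssI methylates CpG sites that neither a nucleosome nor another protein covers, so a high methylation level stands for accessible DNA, and Nanopore sequencing reads the mark. Per the study's methods, all cultures came from ABF1-aa-V5 clone A9, an anchor-away strain in which chromosomal Abf1 is fused to FRB and the ribosomal protein Rpl13A to 2×FKBP12, so that rapamycin carries the fused Abf1 out of the nucleus. Every culture received rapamycin at 8 µg/mL for 75 min, then formaldehyde. The groups differed in a pRS315 plasmid, which carried wild-type ABF1 (WT Abf1), no ABF1 (no Abf1) or a variant with the essential motif shuffled (EM shuffle). The paper built its variants on a shortened Abf1 without the first disordered region, with an added nuclear localization signal and a Flag tag. The motif is thus not the only difference between EM shuffle and WT Abf1. There were 2 biological replicates per construct and aliquots after 3 h and 4 h of methylation, 12 libraries in all. Because every strain was one anchor-away clone, and because the chromosomal copy is carried out of the nucleus and not deleted, the comparisons concern acute depletion in that background.

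Median coverage was 32 to 94 calls per CpG site. Coverage of ABF1 relative to its flanking DNA was 1.78 to 1.92 in the 4 WT Abf1 libraries, 0.821 to 1.06 with no Abf1 and 0.901 to 1.10 in the EM shuffle libraries. The last group thus did not show the extra coverage that its plasmid would add, although a shortened variant would add less than the whole gene. Coverage of LEU2, the marker of pRS315, relative to the nuclear median was 0.461 to 0.719 with WT Abf1, 0.745 to 1.02 with no Abf1 and 0.104 to 0.308 in the last group. These samples are therefore called the libraries labelled EM shuffle. They also form a labelled batch of their own, so that batch and construct cannot be told apart. Chromosome XI, with 3 of the 53 genes, was covered at 1.96 to 2.03 times the nuclear median in their replicate 2 and at 1.15 in their replicate 1. Methylation is given as the percent of calls methylated divided by the correction factor of the construct (1 with WT Abf1, 1.04 with no Abf1, and 0.871 in the libraries labelled EM shuffle), which can exceed 100% in the last group.

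A match to the Abf1 consensus lay 123 to 283 bp upstream of the start codon in 23 of the 53 genes (43.4%), against 1007 of all 6002 genes (16.8%). Each of the 23 genes held 1 match, and 10 of the matches also lay upstream of a neighbouring gene. The following 8 are shown because the largest changes, and the exceptions, were measured in and beside them. Each line runs 5′ to 3′ on the strand of the match with the 13 bases of the match in capitals and 10 bases on either side, from the R64 build of RefSeq.
NOP1, chrIV:427065-427097, minus strand: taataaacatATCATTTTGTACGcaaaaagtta
RRP45, chrIV:1020490-1020522, plus strand: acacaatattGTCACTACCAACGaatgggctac
UTP15, chrXIII:453847-453879, minus strand: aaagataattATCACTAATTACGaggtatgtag
RRP8, chrIV:611933-611965, plus strand: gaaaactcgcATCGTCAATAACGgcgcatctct
RRP7, chrIII:65709-65741, minus strand: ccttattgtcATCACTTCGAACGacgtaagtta
NOP56, chrXII:545899-545931, minus strand: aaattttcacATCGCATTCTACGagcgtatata
RRP1, chrIV:618445-618477, minus strand: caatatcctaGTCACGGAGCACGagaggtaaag
UTP11, chrXI:256624-256656, minus strand: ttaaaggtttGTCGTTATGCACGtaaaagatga

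Another pair of promoters is shown for CpG sites outside any Abf1 match, with every CpG in capitals, on the strand of the gene. The NOP14 stretch covers 165 to 126 bp upstream of its start codon and holds the PAC letters GCGATGAG near its start and the RRPE letters AAAAATTTT at its end. The NOP13 stretch covers 235 to 91 bp upstream and holds GCGATGAG near its end.
NOP14, chrIV:190712-190751, minus strand: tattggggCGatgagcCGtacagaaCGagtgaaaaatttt
NOP13, chrXIV:308703-308847, minus strand: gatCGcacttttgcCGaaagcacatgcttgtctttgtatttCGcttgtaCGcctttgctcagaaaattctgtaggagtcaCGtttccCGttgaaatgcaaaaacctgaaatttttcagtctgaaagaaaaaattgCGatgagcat

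The promoter letters set these genes apart from the genome as a description. PAC, searched as GCGATGAG on both strands within 500 bp upstream, was present at 23 of the 53 genes (43.4%) and at 290 of all genes (4.83%). In the 23 genes the element nearest to the start codon lay 85 to 226 bp upstream of it (median 118). RRPE, searched as AAAAATTTT, was present at 27 of the 53 (50.9%) and at 571 of all genes (9.51%). At 132 other ribosome biogenesis genes PAC was about as common (45.5%) and RRPE more common (61.4%). RNA polymerase subunit genes held PAC at 22.6% and RRPE at 48.4%, so these letters are not particular to the 53 genes. PAC and RRPE occurred together at 13 of the 53, PAC and an Abf1 match at 11, and 12 genes held none of the 3 elements. An Abf1 match was held by 4 of 6 UtpA genes and by 2 of 7 exosome genes.

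With WT Abf1, the promoters of these genes were more methylated than the genome average. They were less methylated than those of other ribosome biogenesis genes and ribosomal protein genes, but more than those of RNA polymerase subunit genes. The promoter window covered 250 to 51 bp before the start codon and held 2 to 8 CpG sites with 158 to 1674 calls per gene and replicate. Averaged over the 53 genes, its methylation was 60.5% and 58.5% in the 2 WT Abf1 replicates, against 50.7% and 48.7% over all 5846 genes tested. Around the start codon the order turned, with 24.7% and 21.9% for the 53 genes and 28.1% and 25.4% over 5876 genes in the window from 50 bp upstream to 150 bp into the coding sequence. In bins of 50 bp, methylation of the 53 genes rose from 21.4% ± 1.30 (SD, n = 2) at 300 to 251 bp upstream to 69.4% ± 1.17 at 150 to 101 bp upstream, and was 15.2% ± 1.83 in the last bin before the start codon. Over all genes the same 3 bins stood at 39.8% ± 1.62, 57.2% ± 1.30 and 25.5% ± 1.83, so that the average gene had a shallower contrast between promoter and flanks. The median promoter stood at 61.1% for the 53 genes, 66.6% for 130 other ribosome biogenesis genes and 73.1% for 132 ribosomal protein genes. For 29 RNA polymerase subunit genes it was 55.9%. No test was run of the genes against the genome, and the 53 genes also differ from it in their promoter letters.

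**Figure D1:**
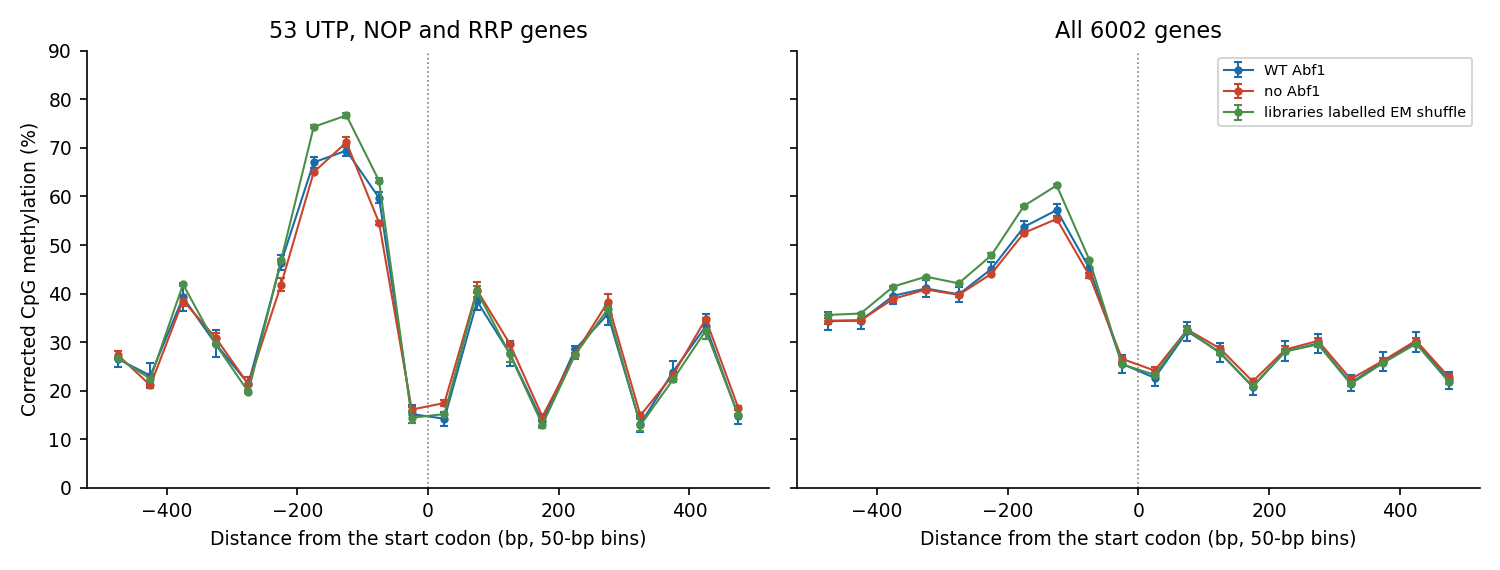
Mean corrected CpG methylation (%) in 50-bp bins from 500 bp upstream to 500 bp downstream of the start codon, for the 53 UTP, NOP and RRP genes (left) and all 6002 genes (right). Points are means and bars SDs of the 2 biological replicates of each construct. In WT Abf1 the 53 genes peak at 69.4% between 150 and 101 bp upstream, above the 57.2% of all genes.

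Of the 4 most accessible promoters, all but that of UTP10 belonged to large subunit factors. As a group the 14 large subunit genes did not stand out, with a median of 66.5% against 66.8% for the 16 other small subunit genes. NOP16 stood at 87.7% and 84.4% in the WT Abf1 replicates, NOP8 at 86.3% and 83.0%, RRP17, which encodes an exonuclease of pre-60S particles, at 85.3% and 81.4%, and UTP10, the largest UtpA protein gene, at 83.0% and 82.7%. The 4 least accessible were UTP22 of UtpC at 15.7% and 7.43%, NOP1, the fibrillarin methyltransferase of box C/D particles, at 17.8% and 11.9%, UTP4 of UtpA at 32.0% and 25.0%, and RRP7 of UtpC at 32.3% and 28.7%. Some of these values rest on few CpG sites, with 2 in the window of UTP22, 3 in that of NOP1, 4 at UTP4 and 5 at RRP7. Among the highest, UTP10 had 3. The 2 groups of 4 genes did not overlap in any replicate, which follows from their choice. NOP1 had its Abf1 match 283 bp upstream, just outside the window, and the 2 CpG sites beside that match were methylated at 71.8% and 62.5%. The replicates of a gene lay close together: the median SD over the 53 genes was 1.99 percentage points in WT Abf1, 0.754 with no Abf1 and 1.97 in the libraries labelled EM shuffle. Between the 3 h and 4 h aliquots the mean over the 53 genes rose by 1.20 to 2.33 percentage points before correction, and was the higher at 4 h in 29 to 37 of the genes.

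**Figure D2:**
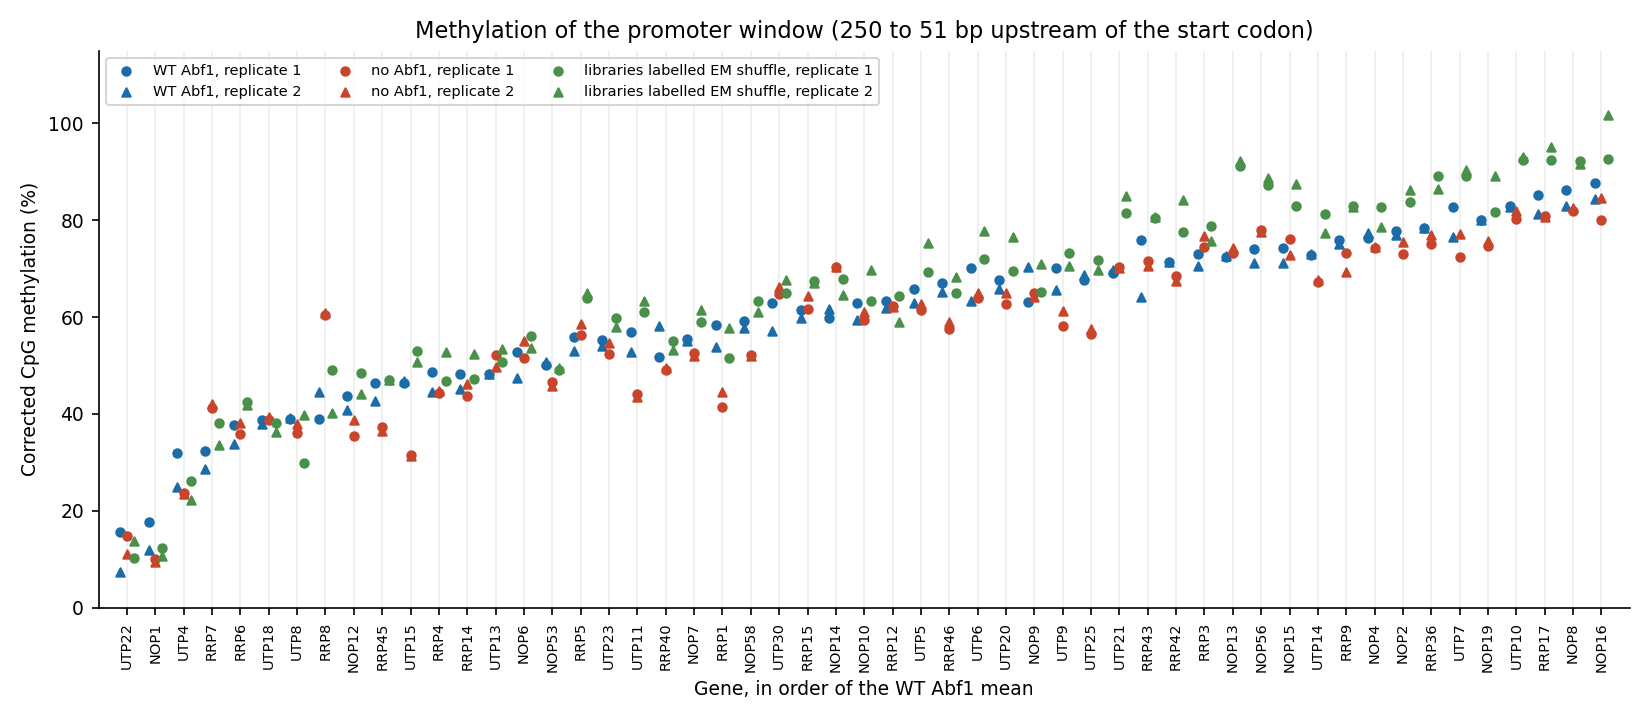
Corrected CpG methylation (%) of the promoter window of each of the 53 genes, in order of the WT Abf1 mean. Circles are biological replicate 1 and triangles replicate 2. RRP8 with no Abf1 (60.4% and 60.8%) stands above its WT Abf1 values (39.0% and 44.6%), and UTP15 with no Abf1 (31.6% and 31.3%) below its own (46.3% and 46.7%).

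Depletion without a plasmid copy of Abf1 changed promoter methylation at 11 of the 53 genes, 5 higher and 6 lower than in WT Abf1. Over all genes tested, 11.6% of windows were called, 4.11% higher and 7.49% lower, so the 53 genes were called at 20.8%. A call is an adjusted p under 0.05 in a quasi-binomial model fitted across all genes with limma's moderated dispersion and Benjamini-Hochberg adjustment over all of them, relative to the genome average of each construct. At an unadjusted p under 0.05 there were 16 genes, and 7 were called when no Abf1 replicate 1 or 2 was left out. The median log2 odds ratio of the 53 genes was -0.05, and over all genes it was -0.003. Of the 11 genes, 10 had an Abf1 match. Genes with a match were called at 43.5% (10 of 23) and other genes at 3.33% (1 of 30), beside 39.5% (395 of 999) and 5.84% (283 of 4847) in the genome, so that among genes with a match the share was near that of the genome.

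Accessibility fell most at UTP15, whose product is a UtpA protein of the small subunit processome. Its promoter window was methylated at 46.3% and 46.7% with WT Abf1, 31.6% and 31.3% with no Abf1 and 52.9% and 50.7% in the libraries labelled EM shuffle. No Abf1 lay below both other groups without overlap, by a log2 odds ratio of -0.92 ± 0.14 (SE) against WT Abf1 (quasi-binomial adjusted p = 3.15e-05). RRP1, a factor of 27S pre-rRNA processing, went from 58.4% and 53.8% to 41.5% and 44.5% (-0.73 ± 0.14, adjusted p = 0.000573). UTP25 of the small subunit processome went from 67.7% and 68.8% to 56.6% and 57.5% (-0.63 ± 0.11, adjusted p = 0.000312). UTP11, also of the processome, went from 56.9% and 52.8% to 44.2% and 43.6% (-0.60 ± 0.13, adjusted p = 0.00174). In all 4 genes the 2 groups did not overlap. The window of UTP25 shares CpG sites with the promoter of ICE2 and that of UTP11 with MTC2, as 18 of the 53 windows did with a neighbour.

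RRP45, an exosome ring subunit, and UTP9 of UtpA fell by less. RRP45 stood at 46.5% and 42.6% with WT Abf1 and at 37.3% and 36.5% with no Abf1 (-0.44 ± 0.14, adjusted p = 0.0411). UTP9 stood at 70.1% and 65.5%, and at 58.2% and 61.3% (-0.43 ± 0.14, adjusted p = 0.0447). Leaving out a single preparation ended the call of RRP45 in 5 of 6 fits (adjusted p = 0.0609 to 0.277) and that of UTP9 in 5 of 6 (0.0516 to 0.356), with log2 odds ratios between -0.56 and -0.33 for RRP45 and between -0.59 and -0.29 for UTP9.

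Accessibility rose most at RRP8, which encodes a methyltransferase of the 25S rRNA. Its window was methylated at 39.0% and 44.6% with WT Abf1, 60.4% and 60.8% with no Abf1 and 49.0% and 40.3% in the libraries labelled EM shuffle. No Abf1 lay above both other groups, at a log2 odds ratio of 1.15 ± 0.14 against WT Abf1 (adjusted p = 2.32e-06). NOP14, a scaffold of the small subunit processome, rose from 59.7% and 61.8% to 70.3% in both replicates (0.74 ± 0.13, adjusted p = 0.000263). RRP7, the UtpC partner of Utp22, rose from 32.3% and 28.7% to 41.3% and 42.0% (0.73 ± 0.15, adjusted p = 0.00132). The calls of RRP8, NOP14, RRP7, UTP15, RRP1, UTP25 and UTP11 held whichever preparation was left out, and those of RRP8, UTP15 and UTP25 under every alternative run. With the window set at 200 to 1 bp upstream, UTP11 was at -0.12 (adjusted p = 0.688), RRP7 at 0.40 (0.0605), RRP45 at -0.19 (0.616) and UTP9 at -0.21 (0.301), none of them called. In a single aliquot UTP11 and RRP1 lost their calls at 3 h (adjusted p = 0.0615 and 0.065) and RRP7 and NOP14 at 4 h (0.0955 and 0.0785).

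Smaller rises were seen at NOP56, a box C/D core protein gene, and RRP3, an RNA helicase gene of 18S synthesis. NOP56 went from 74.0% and 71.2% to 77.9% and 77.6% (0.61 ± 0.18, adjusted p = 0.0235), and its call was lost in 3 of 6 fits with a preparation left out (WT Abf1 replicate 2 or either no Abf1 replicate, adjusted p = 0.0874 to 0.194). It was also lost in either aliquot alone (0.159 and 0.206) and with the window at 200 to 1 bp upstream, where the log2 odds ratio was 0.28 (adjusted p = 0.334). RRP3, which shares CpG sites with SSF1, went from 73.1% and 70.5% to 74.4% and 76.7% (0.47 ± 0.15, adjusted p = 0.0424), and lost its call in all 6 (0.0567 to 0.314). NOP1 stood at 17.8% and 11.9% with WT Abf1 and at 10.1% and 9.52% with no Abf1, without passing the test (-0.68 ± 0.26, adjusted p = 0.113). Without WT Abf1 replicate 2 its adjusted p was 0.0297.

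By role, 2 of 6 UtpA genes were called (UTP15 and UTP9, both lower), 0 of 4 UtpB genes, 1 of 2 UtpC genes (RRP7, higher), 4 of 16 other small subunit genes, 2 of 14 large subunit genes (RRP8 higher and RRP1 lower), 1 of 7 exosome genes and 1 of 4 snoRNP genes. UtpB had no gene with an unadjusted p under 0.05. These groups are too small to be set against each other.

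Inside the Abf1 matches and beside them the changes had opposite directions, which a window over the whole promoter adds together. The 23 matches held 32 CpG sites. Pooled over them, methylation inside the match was 41.1% and 40.2% with WT Abf1, 61.2% and 60.0% with no Abf1 and 50.6% and 49.1% in the libraries labelled EM shuffle. In the flanks, 10 to 75 bp from the centre of the match and with 70 CpG sites, it was 72.2% and 69.3% with WT Abf1, 52.4% and 53.5% with no Abf1, and 73.3% and 73.4% in the libraries labelled EM shuffle. The CpG sites within a match thus lay below their flanks as a whole with WT Abf1 and above them with no Abf1. A dip at the centre of the match, to 41.2% ± 0.745 (SD, n = 2) with WT Abf1, was shallower with no Abf1, at 60.8% ± 0.658. With no Abf1 the profile had its highest values just outside the match, 7 to 25 bp from its centre on either side, at 71.2% ± 0.526 and 71.6% ± 1.60. Farther out, 155 to 105 bp before the match, methylation was 10.8% ± 2.17 with WT Abf1 and 18.9% ± 0.0599 with no Abf1, and 155 to 205 bp after it 24.0% ± 2.62 and 39.7% ± 2.17.

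**Figure D3:**
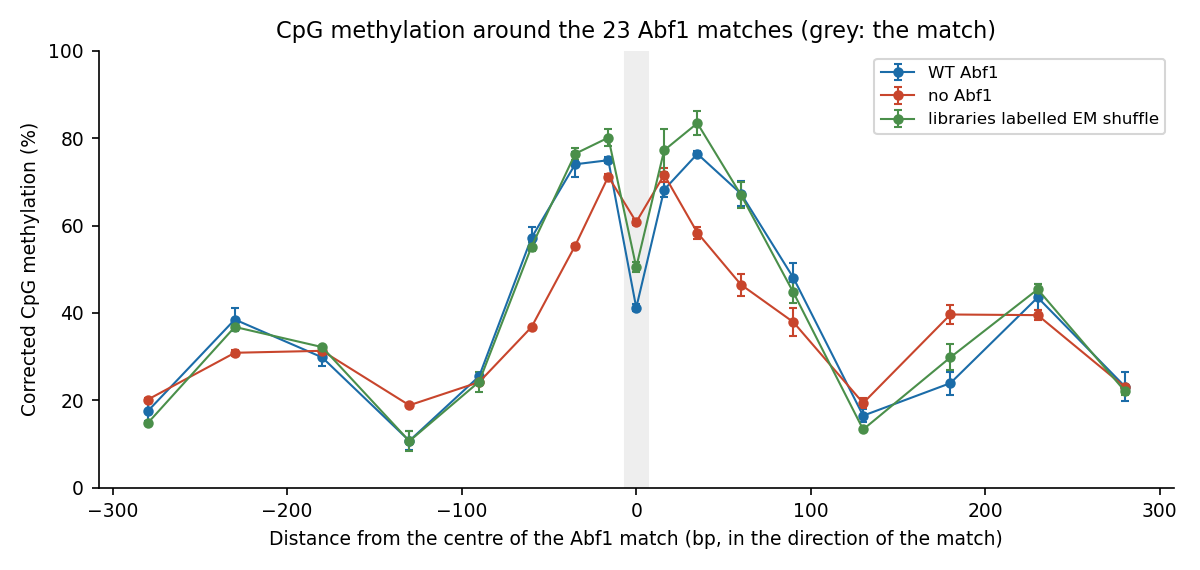
Corrected CpG methylation (%) by distance from the centre of the 23 Abf1 matches (bp, along the strand of the match), pooled over CpG sites in bins of 14 to 50 bp. Points are means and bars SDs of 2 biological replicates. At the match (grey) WT Abf1 lies at 41.2% and no Abf1 at 60.8%, and the order is the reverse at 25 to 75 bp on either side.

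With no Abf1, CpG sites inside the match were called higher at 20 of the 23 genes and lower at 1, where 60.3% and 6.15% of all 829 matches were called higher and lower. The fit of the sites inside the match was added after the data had been seen. The median log2 odds ratio was 1.44 for the 23 and 0.92 for all matches. Flanks could be tested at 21 of the 23 genes, and 19 were called, all lower, where 58.6% of all 753 matches tested were called lower. Their median was -0.96, and -0.63 over all matches. The sites of one match rest on few CpG sites: inside the match, 14 genes had 1 CpG site and 9 had 2.

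At NOP1 the 2 flanking CpG sites went from 71.8% and 62.5% with WT Abf1 to 31.7% and 25.7% with no Abf1, and stood at 60.6% and 68.8% in the libraries labelled EM shuffle (log2 odds ratio no Abf1 against WT Abf1 -2.31 ± 0.25, adjusted p = 1.93e-09). The single CpG site inside the same match did the reverse, at 23.1% and 25.6%, 53.4% and 58.8%, and 28.7% and 24.6% (2.01 ± 0.26, adjusted p = 1.34e-05). Both shifts lay outside the spread of the replicates. The flanks of RRP45 went from 69.4% and 63.3% to 29.2% and 30.1% (-2.22 ± 0.18, adjusted p = 1.29e-11), those of UTP15 from 71.7% and 70.1% to 36.4% and 37.3% (-2.04 ± 0.20, adjusted p = 4.69e-10). Of the other box C/D core genes, NOP58 had flanks at 78.0% and 73.0% with WT Abf1 and at 53.8% and 53.6% with no Abf1 (-1.35 ± 0.21, adjusted p = 1.77e-06), and NOP56, one of the exceptions, did not fall.

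RRP8 and RRP7 had the largest rises inside the match. At RRP8 the 2 CpG sites went from 32.8% and 42.8% to 74.6% and 75.6% (2.44 ± 0.25, adjusted p = 3.33e-06), and at RRP7 from 19.0% and 16.1% to 50.3% and 49.4% (2.26 ± 0.23, adjusted p = 2.83e-06). The 2 flanking CpG sites of RRP8 did not pass the test (69.7% and 71.2%, against 65.4% and 60.5%, -0.40 ± 0.26, adjusted p = 0.188). The other rises inside the match, in order of size, were UTP8 (2.05), UTP13 (2.02), UTP18 (1.99), NOP58 (1.95), RRP3 (1.83), RRP12 (1.77), NOP53 (1.62), UTP5 (1.53), RRP43 (1.44), UTP15 (1.22), NOP12 (1.17), RRP45 (1.15), NOP56 (1.14), RRP5 (1.05), RRP9 (0.99), NOP7 (0.87) and UTP9 (0.68, as log2 odds ratios). UTP8, UTP5, UTP9 and UTP15 are UtpA genes, and UTP13 and UTP18 are UtpB genes. Every gene of these complexes with a match had a call inside it, where 66.5% of all matches were called in either direction. These groups are too small to be set against all matches. In the 3 h aliquots alone the calls of UTP9 (adjusted p = 0.181) and UTP15 (0.073) were lost. The falls in the flanks were -1.40 at UTP11, -1.37 at RRP12, which acts in export of pre-ribosomes, -1.29 at UTP18, -1.08 at NOP12 and UTP9, -0.98 at UTP5, -0.96 at UTP25, -0.95 at RRP43, -0.84 at RRP5, -0.75 at UTP13, -0.72 at RRP3, -0.64 at NOP7, -0.57 at NOP53, -0.56 at RRP1 and -0.41 at RRP9, the U3-specific protein gene. RRP7 and UTP8 had 1 flanking CpG site each and were not tested there. That of RRP7 stood at 77.7% and 70.9% with WT Abf1 and at 39.2% and 40.6% with no Abf1, that of UTP8 at 64.3% and 61.2%, and 25.8% and 29.9%.

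RRP1, UTP11 and UTP25 departed from this pattern inside the match. RRP1 fell there, from 75.1% and 69.1% with WT Abf1 to 61.6% and 60.3% with no Abf1 (-0.64 ± 0.22, adjusted p = 0.0165). With WT Abf1 these 2 CpG sites stood above the flanks of the same match, which were at 46.9% and 47.9%. UTP11 stood at 48.2% and 48.3%, and at 50.8% and 47.7% (0.09 ± 0.17, adjusted p = 0.676), while its flanks fell. UTP25 stood at 64.0% and 64.3%, and at 66.4% and 72.5% (0.48 ± 0.27, adjusted p = 0.138). In the flanks, NOP56 was the only one of the 21 with a point estimate above 0, at 80.3% and 76.5% with WT Abf1 and 81.7% and 83.7% with no Abf1 (0.69 ± 0.32, adjusted p = 0.0618). It passed the test with limma on the empirical logit (adjusted p = 0.0118) and with no offset (0.0381).

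Leaving out a single preparation ended calls at few matches. Inside the match these were NOP7 in 2 of 6 fits (adjusted p = 0.0705 to 0.104), RRP1 in 3 (0.0539 to 0.177), RRP9 in 2 (0.153 to 0.217) and UTP9 in 4 (0.0769 to 0.189). In the flanks these were NOP7 in 2 (0.107 to 0.109), RRP1 in 4 (0.0763 to 0.132), RRP3 in 3 (0.0898 to 0.287), RRP9 in 2 (0.0797 to 0.11) and RRP43 without WT Abf1 replicate 1 (0.0627).

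**Figure D4:**
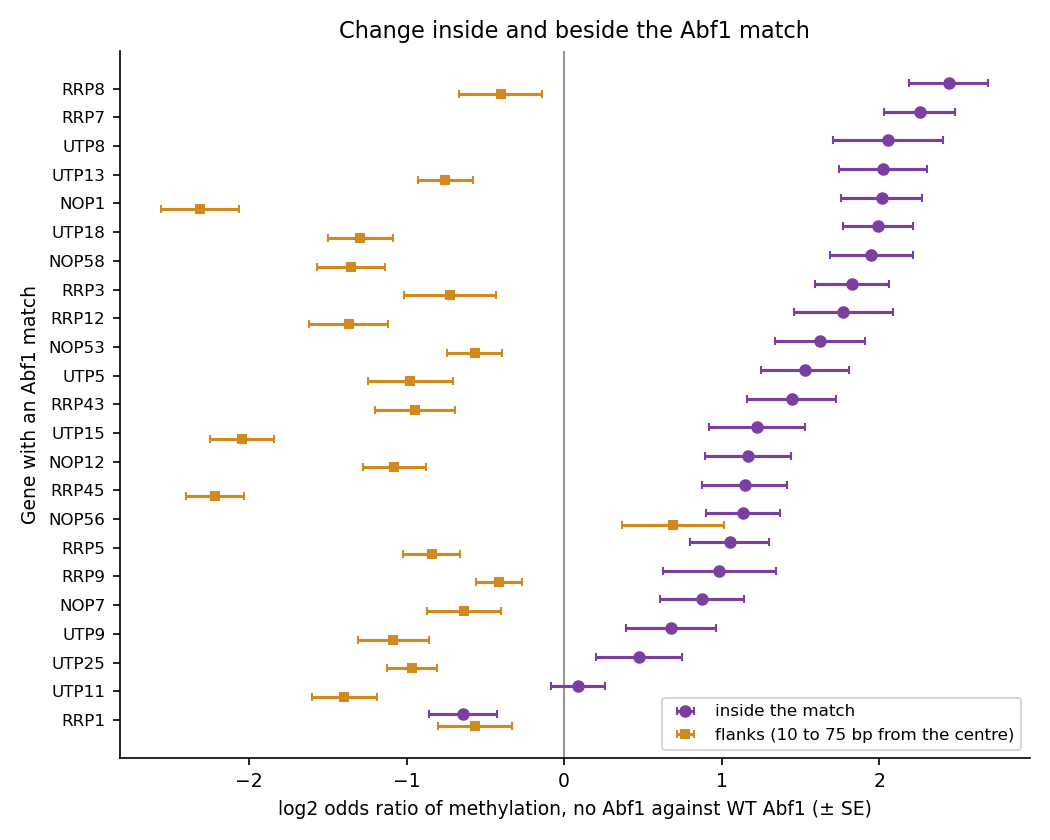
Log2 odds ratio of methylation, no Abf1 against WT Abf1, for CpG sites inside the Abf1 match (circles, 23 genes) and in its flanks (squares, 21 genes with at least 2 flanking CpG sites), with bars of 1 SE. Points inside the match lie to the right of 0 except at RRP1, and points of the flanks to the left except at NOP56.

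Single CpG sites show how the 2 directions met in a promoter. At RRP8 the 4 CpG sites 133 to 116 bp before the start codon, in or within 5 bp of the match, stood between 21.5% and 47.7% in the WT Abf1 replicates and between 63.7% and 78.4% with no Abf1. Its CpG site 166 bp upstream was at 67.0% and 64.3%, and 63.4% and 61.5%. At RRP7 the site 191 bp upstream went from 77.7% and 70.9% to 39.2% and 40.6%, while those 152 and 149 bp upstream went from 24.4% and 20.6% to 59.7% and 58.5%, and from 34.4% and 29.9% to 59.0% and 61.3%. Rises were also seen away from the match, at RRP7 474 bp upstream (from 14.2% and 10.3% to 31.4% and 32.8%) and at base 50 of its coding sequence (from 12.3% and 11.9% to 26.9% and 33.6%), and at RRP8 at base 48 (from 17.0% and 16.1% to 31.4% and 34.1%).

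UTP15 and RRP45 show changes in the flanks and beyond them. Within the flanks, at UTP15 the CpG site 179 bp upstream went from 65.4% and 65.2% with WT Abf1 to 21.8% and 19.7% with no Abf1. Beyond them, its site 291 bp upstream went from 25.2% and 26.0% to 62.1% and 66.3%, and the site at base 32 of the coding sequence from 15.0% and 14.8% to 41.5% and 42.4%. In the libraries labelled EM shuffle these 3 sites stood at 69.4% and 61.1%, 23.7% and 22.5%, and 9.93% and 10.8%, in each case on the side of WT Abf1. At RRP45 the flanking site 287 bp upstream went from 50.4% and 45.9% to 4.69% and 8.72%, and the site 48 bp upstream, beyond the flanks, from 21.7% and 18.9% to 43.8% and 44.7%. Among the sites named here, those within the flanks fell and those beyond them rose. Single sites were chosen after their values were seen and were not tested.

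NOP14 was the one gene without an Abf1 match whose promoter changed with no Abf1. Its rise sat in 2 CpG sites, 149 and 140 bp upstream, the middle and right-hand CpG of the NOP14 sequence above. The first was methylated at 26.0% and 26.5% with WT Abf1, 61.7% and 61.5% with no Abf1 and 38.3% and 21.6% in the libraries labelled EM shuffle. The second stood at 30.5% and 31.9%, 65.3% and 68.0%, and 42.8% and 28.1%. Next to them, the PAC site 157 bp upstream stood at 74.1% and 79.2% with WT Abf1 and 79.9% and 78.4% with no Abf1, where the groups overlapped. The site 79 bp upstream moved the other way, from 62.7% and 62.5% to 47.0% and 51.7%. Both changed sites lie in a stretch (chrIV:190723-190735, plus strand) that meets the Abf1 consensus at all but the first of its 8 defined positions. An overlapping stretch on the other strand (chrIV:190725-190737) also has 1 mismatch and holds the same sites. A further stretch with 1 mismatch (chrIV:190913-190925, minus strand) holds the CpG site 328 bp upstream. That site stood at 7.44% and 2.17% with WT Abf1 and at 3.01% and 7.01% with no Abf1, where the groups overlapped. A stretch with exactly 1 mismatch was found in the same range upstream of 24 of the 53 genes (45.3%) and of 52.0% of all genes, so such a stretch by itself is common. Whether Abf1 binds there was not tested. This search was added after the values of NOP14 were seen. NOP14 lies beside RPN5, whose promoter shares its CpG sites.

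**Figure D5:**
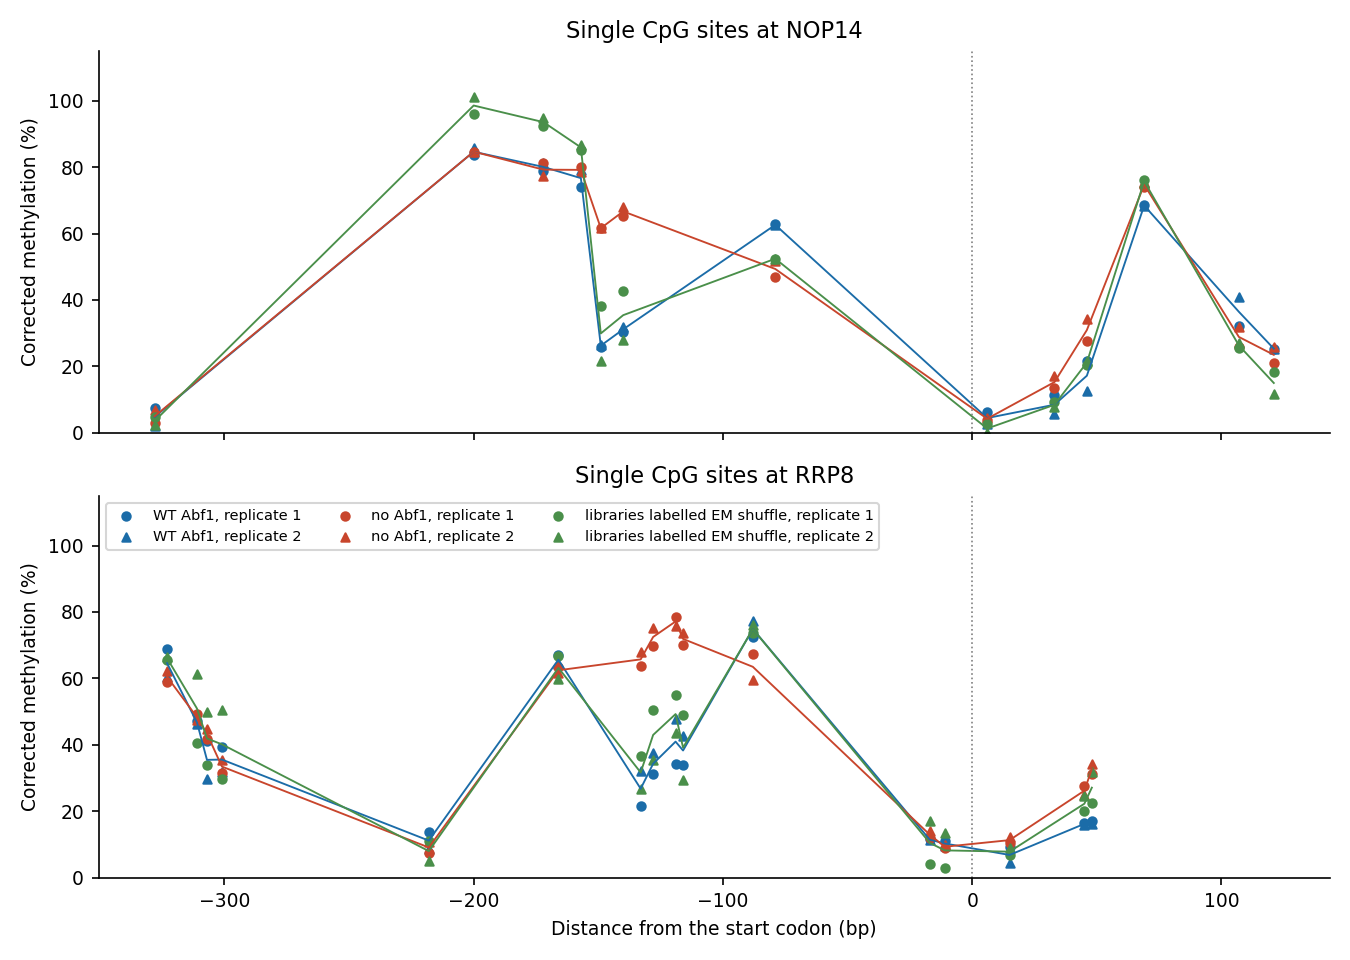
Corrected methylation (%) of single CpG sites from 350 bp upstream to 150 bp downstream of the start codon of NOP14 (top, without an Abf1 match) and RRP8 (bottom, with one). Circles and triangles are biological replicates 1 and 2, and lines join the means of each construct. At NOP14 the sites 149 and 140 bp upstream lie at 26.0% to 31.9% in WT Abf1 and at 61.5% to 68.0% with no Abf1.

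In the libraries labelled EM shuffle, 1 of the 53 promoters differed from WT Abf1, where 1.08% of all windows were called, 0.496% higher. This was NOP13, a nucleolar RNA-binding protein gene related to NOP12. Its promoter stood at 72.3% and 72.6% with WT Abf1, 73.2% and 74.2% with no Abf1 and 91.3% and 92.1% in the libraries labelled EM shuffle (log2 odds ratio to WT Abf1 0.86 ± 0.17, adjusted p = 0.00742). Before the division by the correction factor the mean of the last group was 79.9%, still above the 72.5% of WT Abf1. The rise ran over the 7 CpG sites shown in the NOP13 sequence, for example from 65.0% and 63.8% to 92.1% and 89.0% at 221 bp upstream. Its call was lost without WT Abf1 replicate 1 (adjusted p = 0.0502) and without replicate 1 or 2 of the libraries labelled EM shuffle (0.107 and 0.134), with a log2 odds ratio of 0.83 to 0.89 over the 6 fits.

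No other gene passed the test against WT Abf1, and 4 had an unadjusted p under 0.05. The next highest point estimates were NOP56 (0.58 ± 0.20, adjusted p = 0.177) and UTP21 of UtpB (0.48 ± 0.19, adjusted p = 0.278). Point estimates below WT Abf1 were lowest at NOP1 (-0.36 ± 0.31, adjusted p = 0.68), UTP8 (-0.31 ± 0.27, adjusted p = 0.694) and UTP4 (-0.26 ± 0.22, adjusted p = 0.672). The corrected mean of the libraries labelled EM shuffle lay above that of WT Abf1 in 45 of the 53 genes, and the uncorrected mean in 8, so that a direction over all 53 genes depends on the correction.

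At the Abf1 matches, the libraries labelled EM shuffle were close to WT Abf1 in the flanks. None of the 21 flanks passed the test, where 2.79% of all matches were called. With an unadjusted p under 0.05 there were 2, limma on the empirical logit called 0, and the log2 odds ratios ran from -0.66 to 0.92 with a median of -0.22. Of these 21 ratios 5 lay above 0, although the pooled corrected percent of the flanks lay above WT Abf1. The correction divides the percent and the offset shifts the log odds, so that a direction in the flanks depends on the scale. Inside the match 2 of 23 genes were higher than in WT Abf1, where 7.12% of all matches were called higher, and 10 differed at an unadjusted p under 0.05. UTP11 stood at 66.2% and 68.5%, against 48.2% and 48.3% with WT Abf1 (0.88 ± 0.18, adjusted p = 0.0167). NOP12, a factor of pre-25S rRNA processing, stood at 46.5% and 40.4%, against 29.5% and 22.3% (1.11 ± 0.32, adjusted p = 0.049). UTP11 lies on chromosome XI, with the excess coverage given above, and the part of that in the result was not tested. Without no Abf1 replicate 1 or 2 or replicate 2 of the libraries labelled EM shuffle the count was 0, and 1 without each of the other preparations. With no offset for the genome average, the calls of UTP11 and NOP12 inside the match were lost too. The median of the 23 inside the match was 0.44 and that of all matches 0.45.

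Set directly against no Abf1, the libraries labelled EM shuffle differed at 9 promoters, 7 higher and 2 lower, where 11.2% of all windows were called, 7.97% higher and 3.23% lower. This comparison shares its no Abf1 samples with the one above. UTP15 (1.11 ± 0.14, adjusted p = 6.1e-06), UTP11 (0.85 ± 0.12, adjusted p = 1.22e-05), NOP13 (0.61 ± 0.16), RRP45 (0.50 ± 0.14), RRP1 (0.50 ± 0.15), UTP25 (0.49 ± 0.12) and NOP12 (0.48 ± 0.14) were higher. RRP8 (-1.07 ± 0.15, adjusted p = 1.22e-05) and NOP14 (-0.64 ± 0.14, adjusted p = 0.00193) were lower. RRP3 did not pass (-0.48 ± 0.16, adjusted p = 0.0547), but was called lower with the window at 200 to 1 bp upstream (adjusted p = 0.00282) and with no offset (-0.83, 0.000499). With no offset for the genome average, the calls of NOP13, RRP45, RRP1, UTP25 and NOP12 were lost, at log2 odds ratios of 0.12 to 0.26 (adjusted p = 0.19 to 0.475), so that the split into 7 higher and 2 lower depends on the offset. UTP15, UTP11 and RRP8 kept their calls whichever preparation was left out. The calls of NOP12, NOP13, UTP25 and RRP45 were each lost in 3 or 4 of 6 fits and that of RRP1 in 2 (adjusted p = 0.053 to 0.405 over these), and the call of NOP14 without replicate 2 of the libraries labelled EM shuffle (0.0675). The number of genes called was 3 without that preparation, 5 without their replicate 1 and 4 without no Abf1 replicate 1.

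At the matches the same comparison gave 17 of 21 flanks higher, where 60.3% of all matches were called higher. Inside the match 12 of 23 were lower, where 41.7% were, and 1 (UTP11) was higher, where 14.5% were. The largest differences inside the match were RRP8 and UTP18, both at -2.06. Inside the match the point estimate stood nearer to no Abf1 than to WT Abf1 at 8 of the 23 genes (NOP12, NOP7, UTP9, RRP5, NOP56, UTP15, UTP5 and UTP11). At UTP11, WT Abf1 and no Abf1 did not differ, and the libraries labelled EM shuffle lay above both (0.88 ± 0.18 and 0.80 ± 0.16). These estimates are relative to the genome average of each construct, and the count of 8 depends on that offset. Before correction, the means of the libraries labelled EM shuffle at NOP56, RRP5, UTP15 and UTP5 stood nearer to WT Abf1. At UTP5, for example, the uncorrected mean was 37.1%, against 27.7% with WT Abf1 and 54.2% with no Abf1. The point estimate stood closest to no Abf1 at UTP9, NOP12 and NOP7. Their log2 odds ratios against no Abf1 were -0.02 ± 0.29, -0.06 ± 0.27 and -0.07 ± 0.29, and these intervals leave room for differences of either sign. The count of flanks was 11 without no Abf1 replicate 1 and 11 without replicate 2 of the libraries labelled EM shuffle.

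Around the start codon, 1 of the 53 genes changed with no Abf1, where 4.34% of all windows were called. NOP12 stood at 19.7% and 17.7% with WT Abf1, 27.6% and 24.7% with no Abf1 and 12.6% and 12.9% in the libraries labelled EM shuffle (no Abf1 against WT Abf1 0.62 ± 0.19, adjusted p = 0.0462). The call was lost in all 6 fits with a preparation left out (adjusted p = 0.056 to 0.32), so that it rests on each of them. At an unadjusted p under 0.05 there were 8 genes. The libraries labelled EM shuffle had 0 calls against WT Abf1, where 0.408% of all windows were called, with 3 genes at an unadjusted p under 0.05 and 0 calls by limma on the empirical logit. Against no Abf1 they were lower at NOP12 (-1.22 ± 0.23, adjusted p = 0.000631) and RRP45 (-0.69 ± 0.16, adjusted p = 0.00624), where 3.15% were called. The first was lost without replicate 1 of the libraries labelled EM shuffle (adjusted p = 0.0534) and the second without their replicate 2 (0.586).

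The PAC element has a CpG site of its own, which gives a reading within the element at 23 of the 53 genes. It was methylated at 80.9% and 79.7% with WT Abf1, 72.8% and 73.0% with no Abf1 and 85.6% and 87.3% in the libraries labelled EM shuffle. The flanks of PAC stood at 62.3% and 60.9%, 62.3% and 63.6%, and 67.5% and 67.4%. With WT Abf1 the CpG site within PAC was thus more methylated than its surroundings, the reverse of the Abf1 match. The percentages of the libraries labelled EM shuffle were raised by the division by their correction factor. Their place above WT Abf1, within PAC and in its flanks, depends on that correction and was not tested. At the 11 genes with both elements the mean went from 78.2% and 76.1% with WT Abf1 to 65.1% and 64.0% with no Abf1, and at the 12 others from 82.9% and 82.6% to 79.5% and 81.1%. The lowest of the 23 with no Abf1 was UTP8, where PAC lies 226 bp upstream, at 25.8% and 29.9%, against 64.3% and 61.2% with WT Abf1. At 9 of the 11 genes with both elements, UTP8 among them, the PAC CpG site lies in the flanks of the Abf1 match and is counted there too, so that these falls are not a separate observation. No test was run on single CpG sites.

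Other genes of the same pathway gave a frame for these counts. Of 132 other ribosome biogenesis genes with different symbols, 40 (30.3%) held an Abf1 match and 60 (45.5%) a PAC element. With no Abf1, 13 of 130 tested promoters were called (10.0%, 4 higher and 9 lower). Of their 37 tested flanks 20 were lower and 1 was higher, and of 41 matches 29 were higher and 1 lower inside. Ribosomal protein genes, whose promoters rarely hold an Abf1 match (12 of 132), were called at 17 of 132 promoters (12.9%), and genes of RNA polymerase subunits, with a match at 16 of 31, at 10 of 29 (34.5%). The share of the UTP, NOP and RRP genes (20.8%) lay between these, and the groups were not tested against each other.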

How the data were processed

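CpG methylation had been measured by ODM-seq in 12 libraries. Per the study's methods the authors called bases and modified bases with Dorado, aligned reads to sacCer3 (R64) and carried the methylation calls over and summarised them with modkit, and the submitters' processing notes name minimap2 2.17. In the deposited files the authors give methylation divided by a correction factor as a fraction, or as a ratio in the libraries labelled EM shuffle, where some positions exceed 1. The deposited files also hold occupancy as 1 minus that value (a fraction, or a score where it falls below 0), the correction factor as a ratio and the coverage as a count of calls. The factor is the mean genome average methylation of a construct over that of WT Abf1. Methylated calls were recovered as the product of value, factor and coverage, rounded to a whole number. Both strands of a CpG were added, and 353646 of 354107 nuclear sites with at least 5 calls in every library were kept. The 3 h and 4 h aliquots, which are technical, were summed, so that n = 2 biological replicates, and p-values measure the spread between these.

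Windows with at least 2 CpG sites (inside a match at least 1) were fitted over all genes or matches with a quasi-binomial model (pseudocount 0.5, offset for the genome average of the construct, squeezeVar of limma 3.58.1 in R 4.3.3), two-sided, with Benjamini-Hochberg adjustment and a threshold of 0.05, and checked on simulated data. As log2 odds, the offset came to 0.09 with no Abf1 and to -0.27 in the libraries labelled EM shuffle. The Abf1 consensus was searched with its centre 50 to 500 bp upstream and outside coding sequence. An exact permutation test of 2 against 2 replicates cannot pass the threshold and was not used.

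Genes named were those called in a promoter or start window (up to 12 per comparison), the 3 largest rises and falls of the promoter window per comparison, the 4 highest and 4 lowest promoters with WT Abf1, and every gene with an Abf1 match. The genes, lists and rules were chosen with earlier results of these data known. Single CpG sites, fits inside the match and flanks against no Abf1 were added after the data were seen. Alternatives were no offset, a coverage minimum of 10, either aliquot alone, limma on the empirical logit, only the constructs compared, a replicate block, other window limits, at least 3 CpG sites, no chromosome XI and each preparation left out.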

Additional observations from a re-analysis of the deposited data

Results flagged for a closer look

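In 114 sets of the 4 libraries of a construct at a promoter or flank of a named gene, 3 had a library far from the other 3 by Dixon's ratio, and chance alone is set to give about 1 in 20 sets. All 3 were libraries labelled EM shuffle. In the flanks of NOP56 the 4 h aliquot of replicate 2 stood at 103.7% and the others between 94.8% and 95.9%. In the flanks of NOP58 the 3 h aliquot of replicate 2 stood at 73.1% and the others between 80.1% and 80.9%. In the promoter window of NOP12 the 4 h aliquot of replicate 1 stood at 52.6% and the others between 43.0% and 44.4%. None of these flanks or windows was called against WT Abf1, and the promoter of NOP12 was called against no Abf1.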

How the results depend on the processing

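Counts of genes called moved with some settings. For the promoter window, no Abf1 against WT Abf1, the 11 calls became 6 with the 3 h aliquots alone, 5 with the 4 h aliquots alone, 7 with other window limits and 7 to 10 with a preparation left out. Between WT Abf1 and the libraries labelled EM shuffle the single call became 5 with no offset, 0 with either aliquot alone or other window limits, and 0 to 1 with a preparation left out. Against no Abf1 the 9 became 15 with no offset, of which 4 were among the 9, 4 with the 4 h aliquots alone and 3 to 10 with a preparation left out. For the start window, the 1 call of no Abf1 against WT Abf1 became 5 with no offset, 2 with other window limits, 0 with either aliquot alone, with only the constructs compared and with a preparation left out. The libraries labelled EM shuffle had 1 against WT Abf1 with no offset, and their 2 calls against no Abf1 became 26 with no offset, 0 with the 3 h aliquots alone, 1 with limma on the empirical logit, 4 with other window limits and 1 to 2 with a preparation left out. In the flanks, the 19 calls of no Abf1 against WT Abf1 became 12 with the 4 h aliquots alone and 15 to 19 with a preparation left out. The libraries labelled EM shuffle had 2 flanks called against WT Abf1 with no offset, and their 17 against no Abf1 became 7 with no offset, 11 with the 4 h aliquots alone and 11 to 17 with a preparation left out. Inside the match their 2 calls against WT Abf1 became 0 with no offset or either aliquot alone, 1 with limma on the empirical logit, and 0 to 1 with a preparation left out. The other counts inside the match were 17 to 21 for no Abf1 against WT Abf1 and 11 to 13 against no Abf1 with a preparation left out.

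Of the single values, 4 changed sign, none of them called. UTP11 inside the match, no Abf1 against WT Abf1, was -0.29 in the 4 h aliquots alone. In the promoter window of the libraries labelled EM shuffle, relative to WT Abf1, NOP1 was 0.011 with other window limits, UTP4 0.018 in the 3 h aliquots alone and UTP8 between -0.60 and 0.00038 with a preparation left out. For all of these the cause was not tested, other than that single aliquots and left-out preparations hold fewer calls.

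Replicates of the same number did not deviate together (correlations of -0.06 to 0.08), so the numbers do not pair them. With a replicate block, promoter calls were 9, 1 and 9 in the 3 comparisons, start calls 0, 0 and 2, flanks 18, 0 and 16, and calls inside the match 20, 1 and 13.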
